A study of Mus musculus with 416 samples.

Results

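Zbtb16 encodes PLZF, a zinc finger protein of the BTB family that represses transcription. Its transcript is a known target of the glucocorticoid receptor. To describe what else varied with it, striatum libraries were ranked by Zbtb16 within each breeding generation, and the top 25% of libraries (the high set) were compared with the bottom 25% (the low set). Of 416 libraries in all, each set took 37 from generation 21, 29 from generation 22 and 36 from generation 23. The middle set holds the remaining 76, 61 and 75 libraries of these generations. Each library was made from the striatum of a drug-naïve mouse of the J:DO (Diversity Outbred) stock, an outbred population in which founder genomes are mixed anew in each mouse. The mice of both sets were untreated, so high and low are not groups of the study but libraries chosen by a measured level. The labels give sex, generation and tissue, with no age, hormone level or time of death for single animals. Per the labels' protocols the brains were taken in a morning window, and hippocampus and prefrontal cortex were dissected from the same brains. Library titles carry a number each, and libraries are treated here as separate animals. The order of these numbers was in none of the fits, and in generation 22 the high and low sets were not spread evenly over it.

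Glucocorticoids such as corticosterone cross into cells and bind the glucocorticoid receptor, which is held ready in the cytoplasm by chaperones. The bound receptor enters the nucleus, docks on palindromic DNA elements and raises the transcription of its targets. These include genes that brake inflammation, shift cells from sugar to fat use and limit the hormone response itself. In brain, neurons, astrocytes, oligodendrocytes and vessel cells all carry the receptor.

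Zbtb16 stood at a median of 27.8 CPM (16.7 to 87.3) in the high set, 9.05 CPM (5.70 to 13.3) in the low set and 14.4 CPM in the middle set. CPM (counts scaled to a library's total) is the unit of level throughout, given as the median with the lowest and highest library. These levels chose the libraries and were not tested. The lowest high library and the next one outside it had 16.7 and 16.3 CPM in generation 21, 18.51 and 18.47 CPM in generation 22, and 26.8 and 26.7 CPM in generation 23. At the lower limit the highest low library and the next one had 10.18 and 10.19 CPM, 9.24 and 9.32 CPM, and 13.26 and 13.29 CPM in the same order. Neighbours at each limit were thus close in level, and the sets are ranges of a continuous spread. Zbtb16 as a whole was higher in generation 23, where the high set had a median of 32.8 CPM, against 22.7 CPM in generation 21 and 25.2 CPM in generation 22.

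**Figure D1:**
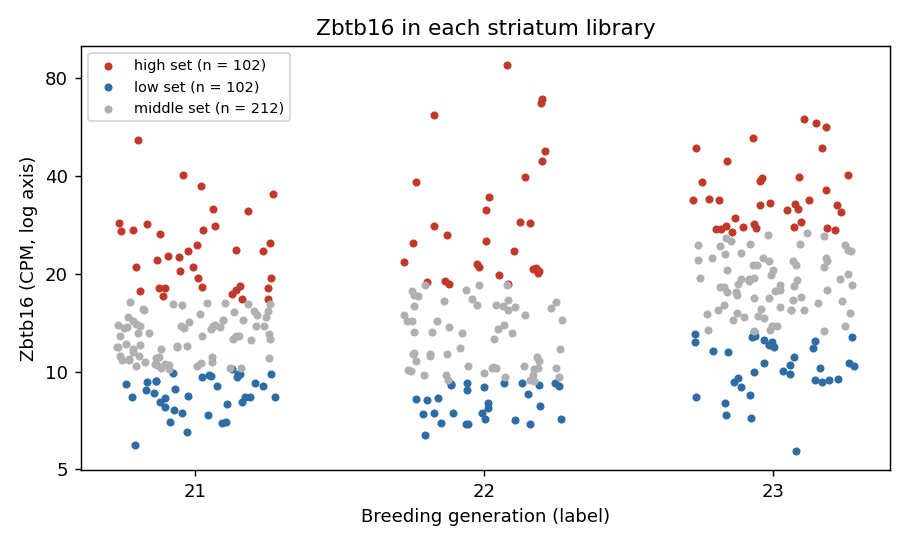
Zbtb16 in each of the 416 libraries (y axis, CPM on a log axis) by breeding generation (x axis), with points spread sideways for legibility. Red points are the high set (n = 37, 29 and 36 in generations 21, 22 and 23), blue the low set (the same n) and grey the middle set (n = 76, 61 and 75). The levels run without a gap through both limits, up to 87.3 CPM in generation 22.

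The libraries of the sets differed in more than Zbtb16. Total counts per library lay between 20331813 and 77458299 over the series, with a median of 43922850 in the high set and 42544981 in the low set. Libraries labelled female numbered 60 (58.8%) in the high set and 38 (37.3%) in the low set (Fisher's exact test, two-sided, p = 0.00315). In generation 21 there were 22 libraries labelled female in the high and 11 in the low set (p = 0.0187), in generation 22 there were 17 and 13 (p = 0.431), and in generation 23 there were 21 and 14 (p = 0.157). The direction was the same in each generation, and the test was passed in generation 21. Libraries with few counts, or poorly correlated with the rest, numbered 19 in the high and 3 in the low set and are called atypical below. The lowest totals were 28456099 in the high and 31046368 in the low set, both above the limit for few counts. The atypical libraries of both sets were thus all poorly correlated ones. Libraries whose Xist level went against the sex label numbered 7 in the high and 8 in the low set. Without these, 58 in the high set and 32 in the low set were labelled female (p = 0.00026). Mitochondrial transcripts took a median of 4.35% of counts in the high set and 4.75% in the low set.

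Of 22967 genes tested besides Zbtb16, 11591 (50.5%) passed a Benjamini-Hochberg adjusted p of 0.05 in edgeR's quasi-likelihood test with generation as a covariate. There were 5524 higher (24.1%) and 6067 lower (26.4%), so a count of list members has to be read against a called background of 50.5%. Most differences were small: the median absolute log2 difference among called genes was 0.16. Targets of the glucocorticoid receptor were among the higher genes. Markers of cortical excitatory neurons were higher by far more. The libraries are therefore called here by their Zbtb16 level and not by a hormone state.

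The letters of a glucocorticoid response element were searched in the promoters of the target list, to show what a receptor site in these genes looks like. The search used GNACANNNTGTNC, a palindrome that reads the same on both strands, where N is any base, in windows from 250 bases before to 50 bases after each gene start (RefSeq, GRCm38.p6). It occurred in 0.475% of 32851 promoters, or 0.537% of 27025 genes. Of the target list, 29 genes had a promoter entry, and 4 of these (13.8%) held the letters: Sgk1, Map3k6, Txnip and Mt1. The fuller form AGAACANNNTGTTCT, which contains the first, occurred in 3 of all promoters (0.00913%), one of them that of Sgk1. A match is a description of letters and no site of measured binding. Sgk1, Map3k6 and Txnip were higher in the high set and Mt1 did not pass the test, and their values follow below. The 4 promoters are shown on the plus strand, 5′ to 3′, with the matched letters in capitals.
Sgk1, chr10:21993640-21993939: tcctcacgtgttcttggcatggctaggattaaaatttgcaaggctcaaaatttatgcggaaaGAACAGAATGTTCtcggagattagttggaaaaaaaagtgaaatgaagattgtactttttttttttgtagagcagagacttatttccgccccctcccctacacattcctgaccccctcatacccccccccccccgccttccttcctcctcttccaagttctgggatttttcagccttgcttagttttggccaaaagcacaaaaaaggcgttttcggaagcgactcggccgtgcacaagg
Map3k6, chr4:133240568-133240867: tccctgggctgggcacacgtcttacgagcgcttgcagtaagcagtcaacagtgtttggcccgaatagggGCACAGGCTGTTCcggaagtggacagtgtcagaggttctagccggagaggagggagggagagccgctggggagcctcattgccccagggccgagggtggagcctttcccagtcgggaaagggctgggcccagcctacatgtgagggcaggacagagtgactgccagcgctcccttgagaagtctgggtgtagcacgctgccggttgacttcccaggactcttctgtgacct
Txnip, chr3:96557707-96558006: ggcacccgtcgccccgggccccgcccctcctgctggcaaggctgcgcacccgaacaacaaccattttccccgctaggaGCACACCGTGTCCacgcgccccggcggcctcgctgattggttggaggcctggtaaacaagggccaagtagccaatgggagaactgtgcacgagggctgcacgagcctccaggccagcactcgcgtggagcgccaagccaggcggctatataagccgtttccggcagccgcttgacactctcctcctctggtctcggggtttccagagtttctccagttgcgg
Mt1, chr8:94178839-94179138: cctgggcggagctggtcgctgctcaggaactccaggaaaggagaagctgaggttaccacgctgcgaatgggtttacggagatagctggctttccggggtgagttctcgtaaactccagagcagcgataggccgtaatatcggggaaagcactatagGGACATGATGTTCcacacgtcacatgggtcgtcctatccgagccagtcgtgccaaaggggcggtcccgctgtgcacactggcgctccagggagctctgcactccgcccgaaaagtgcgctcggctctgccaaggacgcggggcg

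Among genes that glucocorticoids are known to raise, 26 of 34 tested were higher in the high set and 0 were lower, with a median log2 difference of 0.30. The list's members were chosen with earlier results of these data known, so its counts, here and below, carry no independent support. Over all genes tested the share called higher was 24.1% and the median was -0.014. The count was 26 again without the libraries whose Xist level went against the label, and with total count and mitochondrial share as covariates. The smallest adjusted p of any gene belonged to one of them. Tsc22d3 encodes GILZ, a leucine zipper protein that mediates anti-inflammatory effects of glucocorticoids. It had a median of 44.8 CPM (27.1 to 124.5) in the high set and 27.4 CPM (19.8 to 43.7) in the low set. It was 1.66-fold higher (log2 0.73 ± 0.043 SE, adjusted p = 2.2e-36). All but 1 of the high libraries lay above the low set's median, and 58 lay above its highest library. The groups therefore overlapped, but few high libraries reached down to the middle of the low set.

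Some members of the list act in transcription and signalling. Hif3a, a subunit of the hypoxia-inducible factor family, had a median of 7.58 CPM (2.54 to 22.4) in the high set and 3.72 CPM (1.84 to 8.71) in the low set. It was 2.05-fold higher (log2 1.03 ± 0.075 SE, adjusted p = 1.98e-28), and 40 high libraries exceeded every low library. Sgk1, a kinase that controls ion channels and transporters, had a median of 97.05 CPM (50.4 to 220.2) in the high set and 72.6 CPM (56.8 to 104.7) in the low set and was 1.41-fold higher (log2 0.50 ± 0.05 SE, adjusted p = 1.11e-17). Here 46 high libraries lay above the whole low set, and the rest overlapped it. Map3k6, a kinase of a stress-activated cascade, was low throughout, with a median of 1.67 CPM (0.432 to 4.75) in the high set and 0.984 CPM (0.426 to 1.88) in the low set. It was 1.79-fold higher (log2 0.84 ± 0.076 SE, adjusted p = 8.12e-21). Nfkbia, the inhibitor that retains NF-kappa-B in the cytoplasm, had a median of 10.6 CPM (5.76 to 21.5) in the high set and 8.20 CPM (5.51 to 11.02) in the low set. It was 1.37-fold higher (log2 0.45 ± 0.044 SE, adjusted p = 1.11e-18). The Krüppel-like transcription factors Klf15 and Klf9 were 1.24-fold and 1.13-fold higher (adjusted p = 1.11e-17 and 2.33e-09), Bcl6, a repressor of the same BTB family as Zbtb16, 1.29-fold, and Cebpd, a C/EBP transcription factor, 1.38-fold (adjusted p = 3.12e-12 and 9.01e-09).

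Other members act in metabolism, and among these Gpd1, a glycerol phosphate dehydrogenase, did not pass the test (adjusted p = 0.0758). Plin4, a coat protein of lipid droplets, had a median of 17.97 CPM (8.06 to 49.8) in the high set and 10.7 CPM (6.78 to 17.5) in the low set. It was 1.66-fold higher (log2 0.73 ± 0.062 SE, adjusted p = 6.35e-23). Pdk4, the kinase that shuts off pyruvate dehydrogenase and so spares glucose, had a median of 17.8 CPM (9.86 to 44.4) in the high set and 13.7 CPM (7.73 to 21.9) in the low set and was 1.40-fold higher (log2 0.49 ± 0.052 SE, adjusted p = 6.32e-16). Xdh, which oxidises purines to uric acid, had a median of 7.42 CPM (3.14 to 15.9) in the high set and 5.01 CPM (2.21 to 9.59) in the low set and was 1.479-fold higher (log2 0.56 ± 0.06 SE, adjusted p = 2.73e-16). In each of these genes the ranges overlapped, with 54 high libraries above all low libraries for Plin4, 29 for Pdk4 and 18 for Xdh. Txnip, which inhibits thioredoxin and glucose uptake, was 1.18-fold higher (log2 0.24 ± 0.052 SE, adjusted p = 2.56e-05) at medians of 18.3 against 15.6 CPM, and Ddit4, an inhibitor of mTORC1, was 1.25-fold higher (log2 0.33 ± 0.045 SE, adjusted p = 1.42e-10). Angptl4, an inhibitor of lipoprotein lipase, stood at medians of 0.76 against 0.603 CPM and was 1.18-fold higher (log2 0.24 ± 0.083 SE, adjusted p = 0.0115).

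Further members act at membranes. Plekhf1, an endosomal protein, had a median of 2.63 CPM (0.839 to 6.02) in the high set and 1.33 CPM (0.38 to 2.65) in the low set. It was 1.91-fold higher (log2 0.93 ± 0.076 SE, adjusted p = 2e-24), with 50 high libraries above the low set's highest. Arrdc2, an arrestin-domain protein, was 1.43-fold higher (log2 0.52 ± 0.057 SE, adjusted p = 3.34e-15). Gjb6, connexin 30 of astrocytes, was 1.34-fold higher (log2 0.42 ± 0.042 SE, adjusted p = 1.29e-17) at medians of 17.6 against 13.6 CPM, and Mertk, a receptor kinase of phagocytosis, was 1.19-fold higher (log2 0.25 ± 0.031 SE, adjusted p = 1e-12). Mfsd2a, a lipid transporter of the blood-brain barrier, was 1.12-fold higher (adjusted p = 1.04e-05) and Errfi1, an inhibitor of EGF receptor signalling, 1.16-fold (adjusted p = 2.56e-17). The remaining called members, Rasd1, Galnt15, Sult1a1, Cdkn1a and Mt2, differed by log2 1.14, 0.45, 0.30, 0.22 and 0.095. Rasd1, a small G protein first named for its induction by dexamethasone, reached 51.7 CPM in 1 high library at medians of 1.77 against 1.32 CPM, and its log2 difference was 0.54 without the atypical libraries.

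The list was not uniform. Fkbp5, the co-chaperone that lowers the receptor's affinity for hormone and one of its best known targets, had a median of 36.6 CPM (22.1 to 68.1) in the high set and 35.2 CPM (28.1 to 52.5) in the low set. Its difference did not pass the test (log2 0.048 ± 0.033 SE, adjusted p = 0.218). Per1, a clock gene with a receptor site, had medians of 119.97 against 119.4 CPM (log2 0.049, adjusted p = 0.39). Dusp1, a phosphatase that switches off MAP kinases, had medians of 27.8 against 30.1 CPM (log2 -0.049, adjusted p = 0.494). The metallothionein gene Mt1, whose promoter held the matched letters, had medians of 43.2 against 40.99 CPM (adjusted p = 0.304). Tgm2, Gpd1, Nedd9 and Rhob also missed the threshold, with log2 differences of 0.04, 0.073, 0.01 and 0.045. Lcn2, the other gene of the list, was too low to be tested.

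Genes of the receptor's own machinery mostly differed by small amounts. Of 16 tested members, 8 were higher and 2 lower, with a median log2 difference of 0.06. Of all genes tested, 24.1% were higher and 26.4% lower. Nr3c1, the glucocorticoid receptor, was 1.05-fold higher (log2 0.065 ± 0.02 SE, adjusted p = 0.00481), at medians of 142.2 against 135.5 CPM. Nr3c2, the mineralocorticoid receptor, was 1.08-fold lower (log2 -0.12 ± 0.031 SE, adjusted p = 0.000739), at 68.7 against 76.8 CPM. Hsd11b1, the enzyme that regenerates active hormone inside cells, was 1.35-fold higher (log2 0.43 ± 0.085 SE, adjusted p = 4.97e-06) at medians of 3.74 against 2.98 CPM. Of the chaperones that hold the receptor, Hsp90aa1, Fkbp4 and Stip1 differed by log2 0.17, 0.18 and 0.18. The coactivator Ncoa3 was 1.09-fold higher (log2 0.13 ± 0.016 SE, adjusted p = 4.08e-12), whereas Ncoa1 and Ncoa2 did not pass the test (adjusted p = 0.296 and 0.876). With the 6 marker scores 6 of the 16 were higher and 0 lower, against 6.81% and 5.78% of all genes. Nr3c1, Nr3c2 and Hsd11b1 then no longer passed (adjusted p = 0.0618, 0.179 and 0.774).

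Partners of the Zbtb16 protein and its relatives did not share a direction. Among 11 tested partners, 5 were higher and 2 lower (median log2 0.03), against 24.1% and 26.4% of all genes. The corepressor gene Ncor1 had medians of 290.3 against 289.9 CPM and did not pass (adjusted p = 0.228). Hdac4, a deacetylase, was 1.23-fold higher (log2 0.30 ± 0.025 SE, adjusted p = 2.11e-23), and Sin3a, a corepressor scaffold, was 1.08-fold lower (adjusted p = 3.6e-12). In the BTB zinc finger family 8 of 43 tested were higher and 12 lower, a share near the background of called genes. Zbtb8b and Zbtb7b were 1.52-fold and 1.28-fold higher, and Zbtb20, a repressor abundant in brain, was 1.19-fold lower at medians of 691.9 against 829.1 CPM. Of 13 tested genes next to Zbtb16 on chromosome 9, 3 were higher and 8 lower, against 24.1% and 26.4% of all genes. Among these 13 genes Usp28 and Drd2, the D2 dopamine receptor gene, were 1.13-fold and 1.25-fold lower. With the marker scores as covariates, described below, 1 of the 13 was higher and 2 lower, against 6.81% and 5.78% of all genes. Whether position next to Zbtb16 played a part was not tested.

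Markers of the cortex were the second and larger pattern. Of 10 tested markers of cortical excitatory neurons, 9 were higher and 0 lower, with a median log2 difference of 2.67. Over all genes tested, 24.1% were higher and the median was -0.014. Slc17a7, the vesicular glutamate transporter of cortical neurons, had a median of 151.1 CPM (2.74 to 648.7) in the high set and 9.47 CPM (2.02 to 111.9) in the low set. It was 10.1-fold higher (log2 3.33 ± 0.22 SE, adjusted p = 1.58e-31), and 56 high libraries lay above every low library. Tbr1, a transcription factor of cortical projection neurons, had a median of 33.9 CPM (0.931 to 121.04) in the high set and 2.69 CPM (0.575 to 30.8) in the low set and was 8.22-fold higher (log2 3.04 ± 0.21 SE, adjusted p = 5.42e-30). Neurod2, another transcription factor gene, was 9.92-fold higher. The ranges of all of these overlapped, since some high libraries had as little as 2.74 CPM of Slc17a7. Lamp5 was the exception at medians of 51.4 against 50.9 CPM (adjusted p = 0.642). The summed level of the list was 125.2 to 1088.4 CPM in the high set (median 405.6) and 119.5 to 329.98 CPM in the low set (median 145.8), and none of its markers was at 0 across both sets.

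Of the 15 higher genes named by size, the first in order were Shox2, which is in no list, and Slc17a6, which is on the thalamic list. Neurod6, Tbr1, Slc17a7 and Neurod2 are on the cortical list. Outside these lists, Bdnf, a neurotrophin, Nrn1, neuritin, Slc30a3, a vesicular zinc transporter, and Rtn4r, the Nogo receptor, were 7.67-fold, 9.49-fold, 10.2-fold and 6.09-fold higher. Cck, the cholecystokinin gene, had a median of 22.2 CPM (1.63 to 116.4) in the high set and 2.85 CPM (0.881 to 18.7) in the low set and was 6.47-fold higher (log2 2.69 ± 0.17 SE, adjusted p = 1.69e-33). Galnt9, Kcnj6, Mapk11, Slc8a1 and Efhd2 followed Tsc22d3 among the genes named by p, at 5.09-fold, 3.86-fold, 3.31-fold, 2.45-fold and 2.31-fold higher. The neuropeptide genes Vip, Adcyap1 and Crh were higher by log2 2.45, 2.69 and 1.58. In the hormone and stress peptide list, 9 of 12 tested members were higher and 1 lower, against 24.1% and 26.4% of all genes. With 6 marker scores as covariates, described below, 0 of the 12 were called, against 12.6% of all genes. With 12 genes, a count of 0 is close to that share. Vip, Adcyap1 and Crh then stood at log2 0.11, 0.18 and 0.087. Among the cortex-poor libraries, also described below, 5 of the 12 were higher, against 9.82% of all genes.

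Striatal markers ran the other way. All 12 tested markers of spiny projection neurons, the main cell class of the striatum, were lower, with a median log2 difference of -0.33. Over all genes the share called lower was 26.4%. Rgs9, which speeds the shut-off of G proteins, had a median of 586.0 CPM (3.98 to 828.5) in the high set and 698.9 CPM (582.4 to 829.2) in the low set and was 1.27-fold lower (log2 -0.35 ± 0.058 SE, adjusted p = 6.09e-08). Markers of D1 neurons were lower in 7 of 9, those of D2 neurons lower in 7 of 8 with Grik3 higher, and those of cholinergic interneurons lower in 7 of 8. In bulk tissue fewer cells of a type and less RNA per cell cannot be told apart. The summed level of the spiny markers was 920.2 to 12059.0 CPM in the high set (median 9512.5) and 9584.7 to 12609.3 CPM in the low set (median 11184.7). At least 1 high library thus held less than any low library by a wide margin.

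Markers of tissue next to the striatum were high in some libraries too. Thalamic relay markers were higher in 8 of 10 tested (median log2 0.52), against 24.1% of all genes. Their summed level reached 4434.4 CPM in the high set against at most 251.5 CPM in the low set. Shox2, a homeobox gene, and Slc17a6, a vesicular glutamate transporter of thalamic neurons, were 15.8-fold and 12.3-fold higher, yet Shox2 had medians of 0.129 against 0.123 CPM, so that a few libraries carried its difference. Oligodendrocyte markers were higher in 9 of 12 (median log2 0.15). In generation 23 alone they were higher in 0 and lower in 1 (median log2 -0.0065), and in libraries labelled female alone higher in 1. In generation 23 and in libraries labelled female, 15% of all genes were higher. Of 10 choroid plexus markers 0 passed the test, against 50.5% of all genes. Their sums went up to 16664.3 CPM in the high and 6213.6 CPM in the low set. Endothelial markers were lower in 5 of 10 and neurogenic niche markers in 8 of 11, and 1 endothelial marker, Mfsd2a, was higher. Microglia and mural markers were lower in 3 of 11 and 3 of 9, shares near the 26.4% of all genes. Astrocyte markers were higher in 7 of 12 and lower in 1 (median log2 0.075). With the 6 marker scores they were higher in 2 and lower in 1, against 6.81% and 5.78% of all genes. Without the atypical libraries, 8964 genes (39%) were called, 4267 of them higher (18.6%), thalamic markers were higher in 4 of 10, cortical ones in 9 and glucocorticoid targets in 27 of 34.

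Both patterns were found in the high set, but not always in the same libraries. Each list was scored as the mean log2(CPM + 0.5) of its tested members. The glucocorticoid score ran from 3.503 to 4.53 in the high set (median 3.91) and from 3.37 to 3.81 in the low set (median 3.60), and 64 high libraries exceeded the whole low set. The cortical score ran from 1.92 to 5.71 in the high set (median 4.38) and from 1.59 to 4.14 in the low set (median 2.37), with 55 high libraries above the whole low set. Set against the median of all libraries of their generation, 51 high libraries were above it in both scores, 29 in the glucocorticoid score alone, 21 in the cortical score alone and 1 in neither. In the low set 1 library was above in both, 14 in the glucocorticoid score alone, 15 in the cortical score alone and 72 in neither. The spiny neuron score was below the low set's median in most of the high set, with 10 libraries above it.

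**Figure D2:**
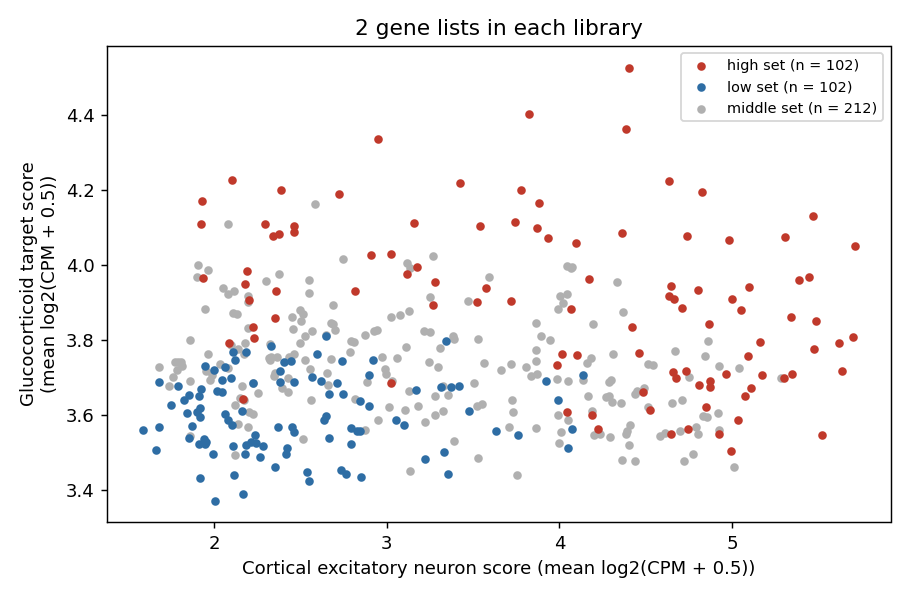
Score of the glucocorticoid target list (y axis) against score of the cortical excitatory neuron list (x axis), each the mean log2(CPM + 0.5) of the list's tested members, 1 point per library. Libraries of the high set (red, n = 37, 29 and 36 in generations 21, 22 and 23) lie high on one or both axes, with 29 above their generation's median in the glucocorticoid score alone and 21 in the cortical score alone. Those of the low set (blue, the same n) gather at the lower left, and grey points are the middle set (n = 76, 61 and 75).

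The comparison was therefore repeated with 6 scores as covariates, those of cortical, thalamic, choroid plexus, ependymal, oligodendrocyte and fibroblast markers. Called genes numbered 2892 (12.6%), 1564 higher (6.81%) and 1328 lower (5.78%). Glucocorticoid targets were higher in 28 of 34 and lower in 0, with a median log2 difference of 0.39. Spiny neuron markers, which are in none of the scores, were called in 0 of 12 (median log2 0.03), D2 neuron markers in 0 of 8 and D1 neuron markers in 1 of 9. With 12.6% of all genes called, these counts are close to the background. CPM are shares of a library's total, so these markers are also not independent of the scores. Cortical markers form one of the scores, so their 0 of 10 follows from the fit and is no result.

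Given the scores, several targets differed by more. Hif3a was 2.62-fold higher (log2 1.39 ± 0.09 SE, adjusted p = 3.61e-31), Plekhf1 2.16-fold (log2 1.11 ± 0.096 SE, adjusted p = 1.2e-20) and Plin4 1.99-fold (log2 0.99 ± 0.081 SE, adjusted p = 3.95e-22). Tsc22d3 was 1.69-fold higher (log2 0.76 ± 0.05 SE, adjusted p = 3.69e-31), close to its value without the scores. Fkbp5 now passed the test at 1.22-fold (log2 0.29 ± 0.037 SE, adjusted p = 1.43e-10), as did Per1 (log2 0.34 ± 0.056 SE, adjusted p = 8.79e-07). Dusp1, Mt1, Tgm2, Gpd1, Nedd9 and Rhob still did not (adjusted p from 0.0647 to 0.833). Rasd1, at log2 0.48, differed by less than without the scores.

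**Figure D3:**
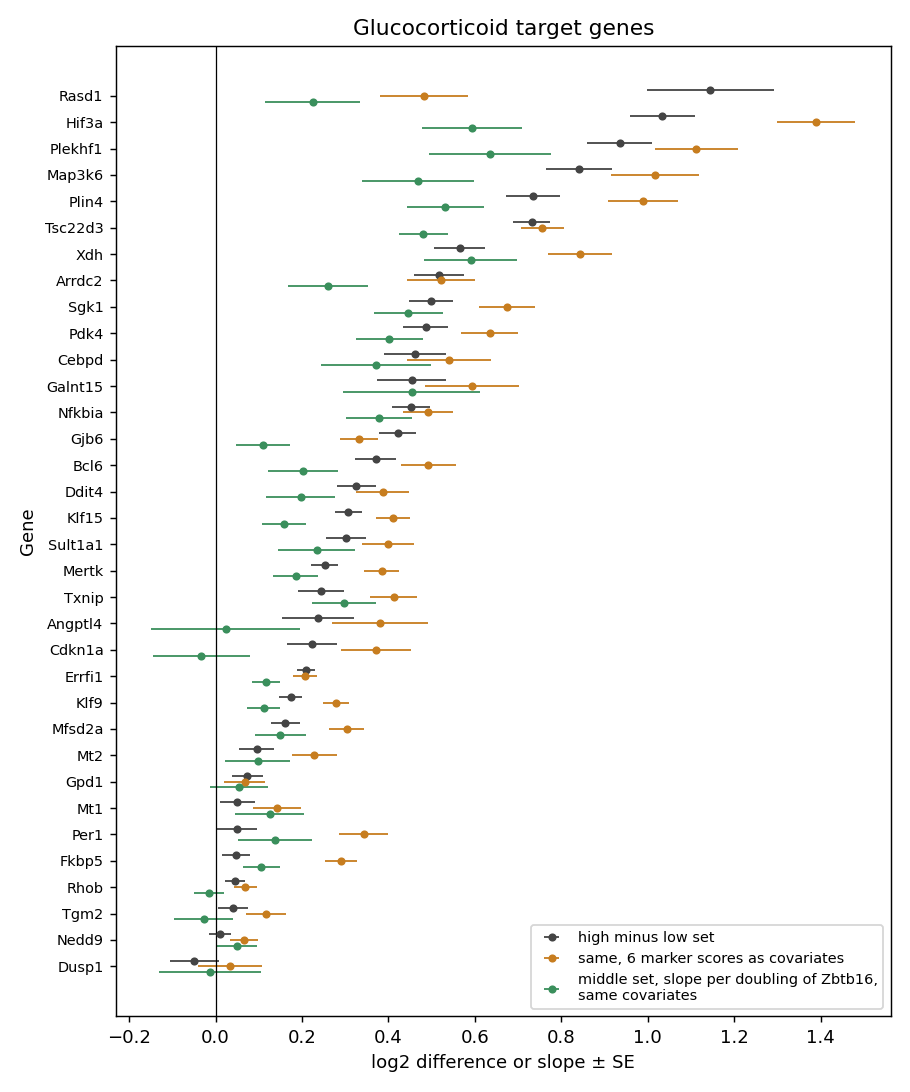
Each of the 34 tested glucocorticoid target genes (y axis) with its log2 difference or slope ± SE (x axis). Black points are the high minus the low set, orange points the same with 6 marker scores as covariates, and green points the slope per doubling of Zbtb16 in the libraries of the middle set (n = 76, 61 and 75) with the same covariates. Most points lie right of 0, with Tsc22d3 near 0.7 in both comparisons of the sets and Fkbp5 right of 0 by more than its error once the scores are in the fit.

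Other gene groups varied in how they behaved under the scores. Of all genes tested, 24.1% were called higher and 26.4% lower without the scores, and 6.81% and 5.78% with them. Heat shock genes were higher in 10 of 12 without the scores and in 9 of 12 with them. Hspa1a, an inducible HSP70 chaperone, had a median of 6.11 CPM (1.06 to 29.03) in the high set and 2.63 CPM (0.843 to 14.9) in the low set and was 2.08-fold higher (log2 1.05 ± 0.13 SE, adjusted p = 4.37e-12). Its near-identical copy Hspa1b was 2.06-fold higher, and reads may be split between them. Immediate early genes, which neurons switch on after activity, were higher in 5 and lower in 2 of 17 without the scores, and higher in 9 and lower in 0 with them. Of these Nr4a1, an orphan nuclear receptor, was at log2 0.54 ± 0.14 SE, adjusted p = 0.00243 and Fosb at log2 0.37 ± 0.082 SE, adjusted p = 0.000394. Clock genes were higher in 7 and lower in 5 of 21 without the scores, and higher in 4 with them, namely Per1, Per2, Cry1 and Bhlhe40. Per2 had a log2 difference of 0.44 (adjusted p = 7.22e-08). Genes of insulin and FoxO signalling were higher in 7 of 15 and lower in 4, against higher in 7 and lower in 0 with the scores, among them Irs2 and Klf4. In the hypoxia and glycolysis list Slc2a1, the glucose transporter of the blood-brain barrier, had a median of 53.5 CPM (38.2 to 87.95) in the high set and 45.9 CPM (34.7 to 58.2) in the low set and was 1.19-fold higher (log2 0.25 ± 0.027 SE, adjusted p = 2.24e-16). Interferon-stimulated genes were higher in 3 of 12, a share near that of all genes, and in 0 of 12 with the scores.

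**Figure D4:**
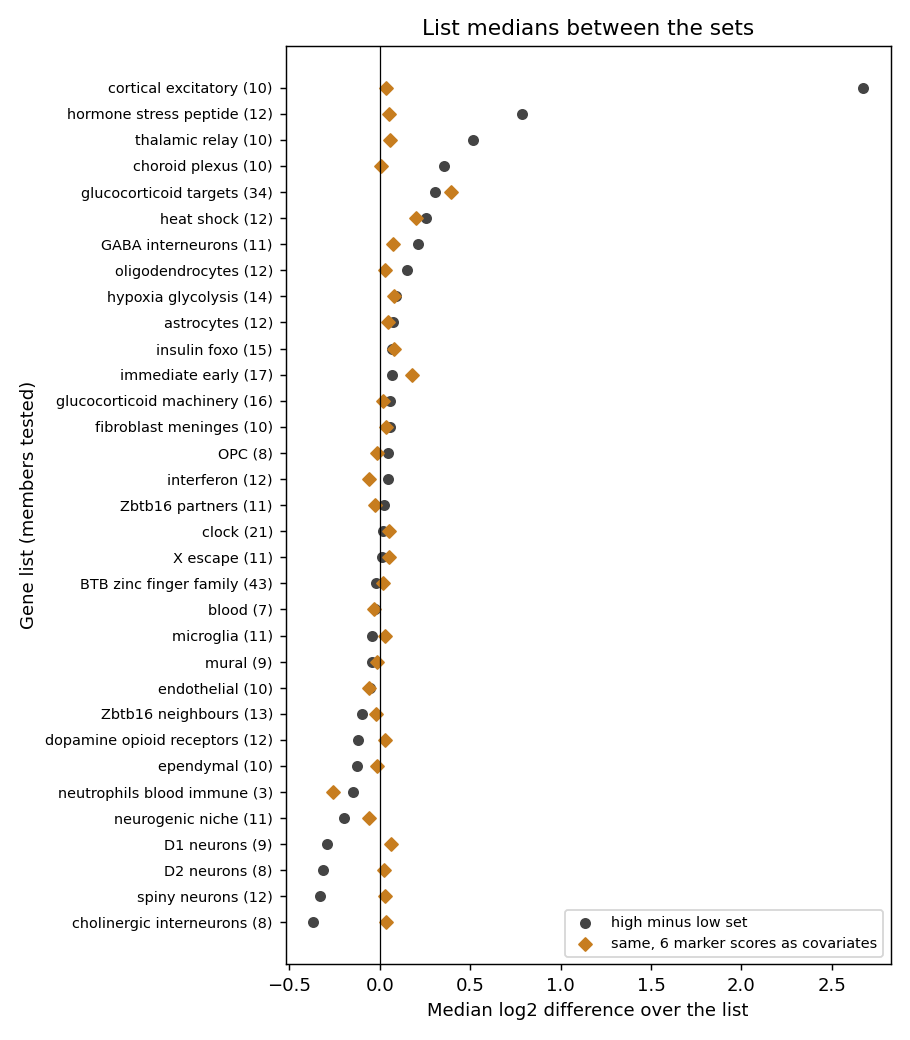
Median log2 difference (x axis) of each gene list (y axis, members tested in brackets) between the high and the low set, without covariates beyond generation (black circles) and with 6 marker scores (orange diamonds). The Y gene list is left out. The cortical list lies at 2.67 without the scores, the spiny neuron list moves to 0.03 with them, and the glucocorticoid target list lies at 0.30 and 0.39.

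Genes outside the lists with small p under the scores were picked after their values were seen, and so carry no support of their own. Adipor2, an adiponectin receptor, had a median of 58.8 CPM (35.8 to 97.5) in the high set and 45.9 CPM (35.6 to 64.3) in the low set and was 1.30-fold higher (log2 0.37 ± 0.029 SE, adjusted p = 2.29e-26). With the scores it stood at log2 0.44 ± 0.034 SE, adjusted p = 3.22e-24. Bcl2l1, which encodes the survival factor Bcl-xL, had medians of 63.03 against 55.3 CPM, and 100 high libraries lay above the low set's median (log2 0.21 ± 0.022 SE, adjusted p = 7.74e-15 with the scores). Snx1, a sorting nexin, Prr5, a subunit of mTORC2, Cables1, Usp54, the phospholipid flippase gene Atp10a and Gpt2, an alanine aminotransferase, had log2 differences of 0.24, 0.66, 0.41, 0.23, 0.44 and 0.31 with the scores.

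Of the called lower genes, 3 differed by more than 2-fold. Jag1, a ligand of Notch receptors, had the smallest p among the lower genes, with a median of 16.4 CPM (9.51 to 27.8) in the high set and 21.99 CPM (14.3 to 34.7) in the low set. It was 1.34-fold lower (log2 -0.42 ± 0.036 SE, adjusted p = 1.39e-22), and 92 high libraries lay below the low set's median. With the scores it was at log2 -0.35 ± 0.05 SE, adjusted p = 8.07e-09. Kcna4, a potassium channel gene, was 1.29-fold lower (log2 -0.36 ± 0.035 SE, adjusted p = 6.8e-19), and with the scores its log2 difference was -0.062 (adjusted p = 0.229). Slc6a6, the taurine transporter, Gucy1a1, a guanylate cyclase subunit, and Rnf103 were 1.205-fold, 1.33-fold and 1.16-fold lower. Among called genes of mean log2 CPM of at least 1 with one sign in all generations, Kera and Lum, which encode keratan sulfate proteoglycans of connective tissue, were lower by most, at 1.71-fold and 1.54-fold, and Lum had medians of 1.38 against 2.19 CPM. Epyc, a proteoglycan of the same family, was 1.45-fold lower at 14.9 against 22.8 CPM.

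The libraries of the middle set are in neither of the sets compared, and there each gene was fitted against log2 Zbtb16. Their limits come from the same ranking by Zbtb16, so this fit is not independent of the rule. In these libraries 2565 genes (11.2%) were called, 1604 with a rising (6.98%) and 961 with a falling slope (4.18%). Of them 2398 (93.5%) were among the genes called between the sets, against 50.5% of all genes tested. These 2398 were 20.7% of the genes called between the sets, and 2392 had the same sign. Glucocorticoid targets had a rising slope in 9 of 34, cortical markers in 8 of 10, and spiny markers a falling slope in 12 of 12. Zbtb16 spans a narrower range there, and a slope is a log2 change per doubling of Zbtb16.

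With the 6 scores in the fit of the middle set, 66 genes (0.287%) were called, 47 rising (0.205%) and 19 falling (0.0827%), and 9 of the 47 were glucocorticoid targets. These were Tsc22d3, Plin4, Sgk1, Xdh, Pdk4, Hif3a, Nfkbia, Plekhf1 and Txnip. Tsc22d3 had a slope of 0.48 ± 0.057 SE per doubling of Zbtb16 (adjusted p = 1.35e-10). Plin4 had 0.53 (adjusted p = 6.15e-05) and Sgk1 0.45 (adjusted p = 0.000243). Adipor2, Bcl2l1, Atp10a, Usp54 and Cpm, the gene of carboxypeptidase M, rose too, and Jag1 fell (log2 -0.29 ± 0.063 SE, adjusted p = 0.00773). Heat shock genes were called in 0 of 12 in the middle set by edgeR, with and without the scores. Over all genes, 2008 had an unadjusted p under 0.05 with the scores and 5395 without them. Of the 66 genes called with the scores, 42 (63.6%) were also called between the sets with the scores, against 12.6% of all genes.

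**Figure D5:**
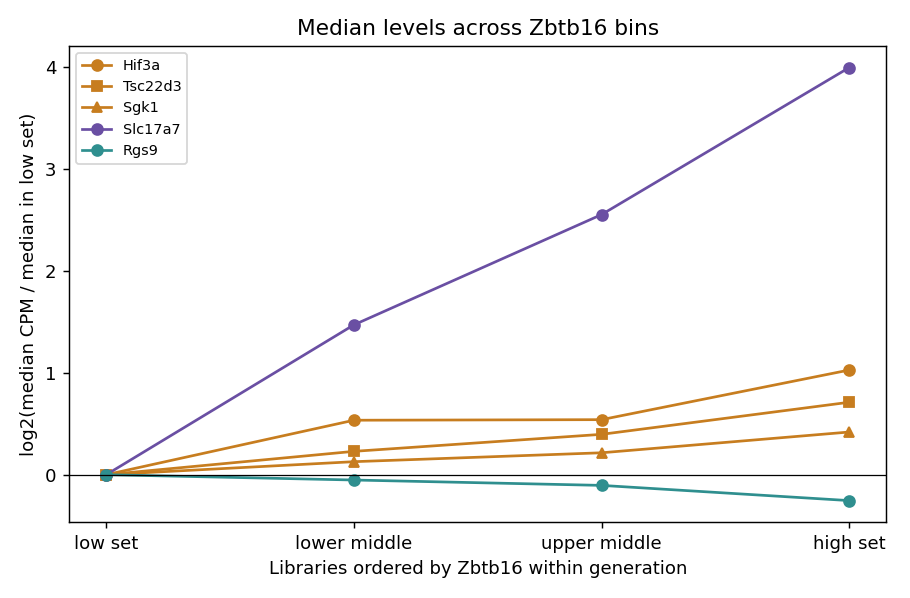
Median CPM of 5 genes in 4 bins of libraries ordered by Zbtb16 within generation (x axis, low set to high set), as log2 of the ratio to the low set's median (y axis). Orange lines are glucocorticoid targets, the purple line is a cortical marker and the teal line a spiny neuron marker. Slc17a7 climbs from bin to bin to a median of 151.1 CPM in the high set, Tsc22d3 to 44.8 CPM, and Rgs9 declines to 586.0 CPM.

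Across 4 bins of Zbtb16, from the low set through the lower and upper middle to the high set, medians of Tsc22d3 were 27.4, 32.1, 36.02 and 44.8 CPM. Those of Sgk1 were 72.6, 79.3, 84.3 and 97.05 CPM. Both increased at every step. Hif3a had 3.72, 5.39, 5.41 and 7.58 CPM, with nearly equal values in the middle bins. Slc17a7 had 9.47, 26.2, 55.6 and 151.1 CPM, increasing at every step. Jag1 went down through 21.99, 20.4, 19.5 and 16.4 CPM, and Rgs9 through 698.9, 674.0, 649.8 and 586.0 CPM. Fkbp5 barely moved, at 35.2, 35.9, 36.2 and 36.6 CPM.

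A further repeat kept the libraries whose cortical score was below the median of their generation and took the top and bottom 25% anew, 50 high against 50 low. Of these, 31 high and 50 low ones were in the first sets. It was added after the cortical pattern had been seen. Here 3736 genes (16.3%) were called, 2256 higher (9.82%) and 1480 lower (6.44%). Glucocorticoid targets were higher in 29 of 34 and lower in 0 (median log2 0.37), with Tsc22d3 at log2 0.82 ± 0.066 SE, adjusted p = 5.17e-18 and Fkbp5 at log2 0.20 ± 0.039 SE, adjusted p = 0.000114. Spiny markers were lower in 2 of 12. Cortical markers were still higher in 8 of 10, at a smaller median of 0.61, and thalamic and choroid plexus markers were higher in 10 of 10 and 8 of 10.

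Within single generations the glucocorticoid targets were higher in 26, 20 and 22 of 34 in generations 21, 22 and 23, where 19.7%, 14.1% and 15% of all genes were called higher. None was lower in any of them. Tsc22d3 had log2 differences of 0.84, 0.63 and 0.69, and the test of a difference between generations gave an adjusted p of 0.37. Cortical markers were higher in 9 of 10 in each generation. Thalamic markers were higher in 10 of 10 in generation 21 (median log2 1.45), 1 in generation 22 and 4 in generation 23. The difference between high and low Zbtb16 depended on generation in 1317 genes (5.73%), and in 20 once the atypical libraries were left out.

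By labelled sex, targets were higher in 22 of 34 in libraries labelled female and in 24 of 34 in those labelled male, where 15% and 21.2% of all genes were called higher. Tsc22d3 differed by log2 0.61 and 0.79, and the test of the difference between sexes gave an adjusted p of 0.708. With labelled sex as a covariate its log2 difference was 0.71. The difference between high and low Zbtb16 depended on labelled sex in 48 genes (0.209%), of which 0 remained called by edgeR without the atypical libraries, where 1496 genes had an unadjusted p under 0.05. Without the libraries whose Xist level went against the label the number was 70.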

How the data were processed

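Ribosome-depleted total RNA of 416 striatum libraries was sequenced as 100 base read pairs, per the labels' protocols. The deposited values are estimated counts per gene (23.8% not whole). The aligner, counting tool and build are not given in the sources used here. Of 46517 gene IDs, 46005 (98.9%) were named from GENCODE M21. Rounding to whole numbers changed the summed counts by 0.005%. Total counts per library had a median of 43516366, and at this depth Zbtb16 had at least 203 counts. CPM divide by the column total.

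The top and bottom 25% by Zbtb16 CPM were taken within generation. Genes passing filterByExpr over the 6 groups of sex and generation (minimum count 10) numbered 22968. After TMM scaling, edgeR 4.0.16 under R 4.3.3 gave robust quasi-likelihood fits with generation as covariate. Tests were two-sided, and the threshold for a call was 0.05 on Benjamini-Hochberg adjusted p-values over 22967 genes. Fold changes use TMM scaling. Marker scores are means of log2 CPM (prior count 2) over a list. DESeq2 1.42.0 and limma 3.58.1 served as alternatives, beside other scalings, filters, covariates and choices of libraries.

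Atypical libraries (36) had a total below 0.5 of the median, or correlated with the others at a level over 4 scaled median absolute deviations below the typical one. A library went against its sex label where Xist lay across 100 CPM (29 libraries). Y genes were 0 in all libraries labelled female and are not compared. Named genes were, among called genes of mean log2 CPM of at least 1 with one sign in all generations, the 15 higher and 10 lower by size and 8 each by p, with list members and genes of smallest interaction p. Some genes that the rule names are not reported here. The members and the 34 lists were chosen with earlier results of these data known. On simulated data of 6000 genes 1.1, 1.2, 1.5 and 2-fold changes between the sets were recovered in 44%, 82%, 96% and 98% of genes, with 10 false calls among 5800 unchanged genes, and the slope of the middle set recovered 40%, 62%, 90% and 94%, with 8 false calls. The test of a difference between labelled sexes recovered 16%, 58%, 78% and 94%, with 18 false calls, so small differences between sexes could be missed.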

Additional observations from a re-analysis of the deposited data

Results flagged for a closer look

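The difference between high and low Zbtb16 depended on labelled sex for 6 genes named by their small interaction p. Drc7, Slc4a5, Mfrp, Aqp1, Scara5 and 1500015O10Rik each had an adjusted p of 0.00545 for the interaction in edgeR's test. Slc4a5 and Aqp1, an ion transporter and a water channel of the choroid plexus, had log2 differences of -1.28 and -1.02 in libraries labelled female, and of 2.35 and 2.41 in libraries labelled male. For Drc7, Mfrp, Scara5 and 1500015O10Rik they were -0.82, -0.85, -0.99 and -1.13 under the female label, and 0.98, 1.88, 1.86 and 1.57 under the male label. Choroid plexus markers as a list were higher in 10 of 10 in libraries labelled male and in 0 of 10 in those labelled female. Of all genes, 21.2% and 15% were higher under these labels. Without the atypical libraries no interaction was called.

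The difference between high and low Zbtb16 depended on generation for the thalamic markers Prkcd (adjusted p = 1.75e-12 in edgeR's test over generations) and Tcf7l2 (2.24e-05). Prkcd differed by log2 4.08 in generation 21, 0.30 in generation 22 and 0.13 in generation 23. Vipr2, Tnnt1, Akap2 and Grid2ip also differed most in generation 21 (adjusted p = 3.67e-06, 4.64e-06, 2.24e-05 and 2.24e-05), as did Shox2 (0.0117) and Slc17a6 (0.00897). Shox2 differed by log2 5.22, 0.52 and 1.57 in generations 21, 22 and 23. Of the glucocorticoid targets, Rasd1 (adjusted p = 0.0044) differed by log2 1.92, 0.83 and 0.42, and Rhob (0.0371) by 0.15, 0.0014 and -0.029. Neurod6 (0.0358), a cortical marker, differed by log2 3.26, 4.38 and 2.37, with its largest value in generation 22.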

How the results depend on the processing

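Glucocorticoid targets were called higher in 20 to 29 of 34 over the 22 alternatives run. Genes called between the sets ran from 2892 to 13439, against 11591. The lower counts were 2892 with 6 marker scores as covariates, 6792 in libraries labelled female, 6199 in generation 22, 6861 in generation 23, and, under choices added after the data were seen, 4076 with sets taken on Zbtb16 adjusted for the scores and 3736 in the cortex-poor libraries. Those comparisons use fewer libraries in the last case, in single generations and in single sexes. Spiny neuron markers called lower went to 0, 2 and 2 of 12 with the scores, with the adjusted sets and in the cortex-poor libraries. Cortical markers called higher went to 0 with the scores, by construction. In the middle set 66 genes were called with the scores in place of 2565. Without atypical libraries, 0 genes depended on labelled sex in place of 48 and 20 on generation in place of 1317. The sign of the log2 difference changed with the scores for Neurod6 (log2 -0.20), Tbr1 (-0.031), Nr4a2 (-0.011), Rtn4r (-0.035) and Fam19a1 (-0.16). It also changed in generation 23 for Mt2 (-0.020), and in generation 21 for Creb5 (0.046). For named genes called between the sets, changes of sign were counted whatever the p. For a named gene not called between the sets, a change was counted only where the alternative called it. Other changes of sign in such genes are not listed. Several of the values above are close to no difference. Neurod6 and Tbr1 are in the cortical score, so their values with the scores follow from the fit. For the other genes the cause was not tested. DESeq2 called 11315 genes, limma voom 11370, RLE factors 11546 and no filter on low counts 11986. No paired analysis was possible because the labels give no replicate numbers that groups share. Of the 35 listed glucocorticoid targets, 1 (Lcn2) had too few counts at this depth to be tested.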
